A study of Homo sapiens with 2 samples.

Results

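A group of 10 genes that encode fibronectin, periostin and other matricellular, microfibril and hyaluronan-binding matrix proteins were followed in A1847 cells with and without CARM1. CARM1 is an arginine methyltransferase that modifies histones and chromatin regulators, and A1847 is a human epithelial ovarian cancer cell line with a high CARM1 level. The 10 genes are FN1, POSTN, TGFBI, TNC, SPARC, THBS1, THBS2, FBN1, FBN2 and VCAN, of 57736 genes in the count table. They were chosen by name from the matrix genes with their read counts in both libraries already known, so every fold change below is a description of those counts and not a test. RNA-Seq was performed on parental A1847 cells, wild type for CARM1, and on A1847 cells with a CARM1 knockout (CARM1 KO), with 1 library each. The CARM1 KO cells are 1 clone, made from the parental cells with a lentiviral CRISPR vector carrying 1 guide RNA against CARM1. Both were grown in RPMI 1640 medium with fetal bovine serum, and no drug treatment is given for either library. The effect of losing CARM1 and the difference between 1 clone and the population it came from cannot be told apart with these libraries.

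The parental library held 30741953 reads and the CARM1 KO library 32300391. With 1 library per condition there was no replicate check, so no P value is given. A range in brackets after a fold is its 95% exact binomial interval, which covers counting error only. CARM1 itself, the targeted gene, had 975 reads in the parental and 380 in the CARM1 KO library and was 2.63-fold lower (2.33 to 2.97), short of the fold of 3 used below. The residual reads are counts of transcripts and not of protein. Markers of epithelial cells were uneven, with the parental count given first and the CARM1 KO count second. The keratins KRT8 (17600 and 70370 reads), KRT18 (21154 and 51223) and KRT7 (4417 and 26653) were abundant, and EPCAM was at 249 and 848. The other epithelial markers listed were low: CDH1 (3 and 53), CLDN3 (0 and 10), CLDN4 (2 and 0), MUC1 (15 and 35) and KRT19 (45 and 0). PAX8, a transcription factor of Müllerian epithelium and of ovarian carcinoma, had 311 and 1149 reads, while the ovarian markers WT1 (8 and 1 reads) and MUC16 (0 and 1) were close to absent. A gene was counted as higher or lower when its TMM-scaled fold was past 3, the fold used in the study. Some of the intervals of genes so counted reach below 3. TMM scaling sets the libraries to a common level under the assumption that most genes do not change. Levels are given as CPM, the reads of a gene per 1000000 reads of the TMM-scaled library.

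The extracellular matrix is a meshwork outside cells. Fibronectin dimers are assembled into fibrils by integrins on the cell surface, and collagens, fibrillins and growth factors bind to those fibrils. Matricellular proteins such as the thrombospondins, tenascins, SPARC and periostin are secreted into the matrix and modulate adhesion and signalling more than they give it strength. In ovarian cancer both the tumour cells and the surrounding fibroblasts and mesothelium can make these proteins, and periostin and versican are best known as stromal products.

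The matrix genes split. FN1, TNC, THBS1, TGFBI and THBS2 were higher in CARM1 KO cells past the fold of 3, POSTN was lower 4768-fold, and SPARC, FBN1, FBN2 and VCAN were under the fold. All 10 genes had at least 10 reads over both libraries, as did 18563 genes in all. Of the 10, 5 were higher, where 12.8% of all genes were higher, and 1 was lower, where 11.7% of all genes were lower. Among the 7789 genes with at least 1000 reads, the 8 matrix genes left (without TNC and THBS2) held 3 that were higher and 1 that was lower, beside 5.82% and 4.67% of all such genes. The median log2 fold of the 10 genes was 1.82, beside −0.02 for all genes, and that of the 8 abundant ones was 1.16, beside −0.003. The genes nearest to the fold of 3 were TGFBI, past it at 4.41-fold higher, and FBN1, short of it at 2.81-fold higher.

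**Figure D1:**
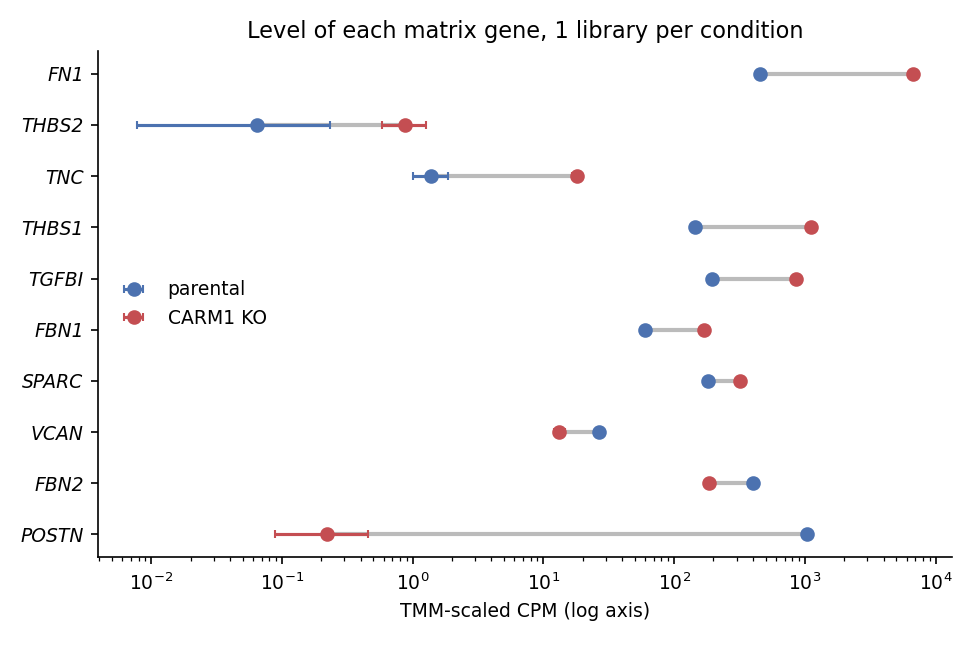
TMM-scaled CPM (x axis, log scale) of the 10 matrix genes in the parental and the CARM1 KO library, 1 library each, with bars for the 95% exact counting interval where it is wider than the point. FN1 moved from 450 to 6735 CPM, and POSTN from 1047 to 0.220, where its interval is visible.

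FN1 encodes fibronectin, whose arginine-glycine-aspartate motif is bound by integrins. It had 14018 reads in the parental and 214759 in the CARM1 KO library, which is 450 and 6735 CPM. The gene was already abundant in the parental library and was among the most abundant of all in the CARM1 KO library, with a rank by reads of 258 in the first and 5 in the second. The fold was 15.0 higher (14.7 to 15.2). Per kilobase of merged exons its level was 26.1 CPM in parental and 391 in CARM1 KO cells, a rank of 1411 and 44 among 14140 protein-coding genes. FN1 lies on the minus strand at chr2:216225163-216300796 (GRCh37), and its canonical transcript has 46 exons. Its alternatively spliced extra domains separate cellular from plasma fibronectin and cannot be read from counts per gene.

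POSTN encodes periostin, a protein of fasciclin domains that binds integrins and collagen and is a well-known product of fibroblasts and periosteum. It had 32601 reads in the parental and 7 in the CARM1 KO library, or 1047 and 0.220 CPM. In parental cells it had more reads than FN1 and ranked 63 by reads, and in CARM1 KO cells it ranked 16685. The fold was 4768 lower (2314 to 11861). On the log2 fold with a prior count of 2 added to each library, which tempers genes with few reads, 4 of the 18563 genes were lower than POSTN. POSTN lies on the minus strand at chr13:38136720-38172981, with 23 exons in its canonical transcript.

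Most listed markers of fibroblasts with at least 10 reads moved with POSTN. Of the 9 listed, 7 had at least 10 reads, and of these 5 were lower, 1 was higher and 1 was under the fold. Among all genes 11.7% were lower and 12.8% higher, to be read beside this and the other marker counts below. The summed level of the 9 was 835 CPM in parental and 78.1 in CARM1 KO cells, and most of the parental sum came from PDGFRA and COL6A3. PDGFRA, the alpha receptor for platelet-derived growth factor, had 14326 and 2 reads and was 7334-fold lower (2030 to 60564). THY1, a surface glycoprotein, had 678 and 4 reads, and COL6A3, a collagen VI chain, had 10642 and 1801. COL1A1, the main collagen I chain, went the other way with 131 and 537 reads, a fold of 4.0 higher (3.30 to 4.88). Of the other listed markers, DCN had 24 and 0 reads, LUM 61 and 1, PDGFRB 132 and 142, FAP 2 and 3, and DPT 0 in both libraries. The part of other cells, or of cells of another state, in the POSTN difference was not tested. In bulk libraries fewer cells of a type and less RNA per cell cannot be told apart. Of the 4 endothelial markers named in the annotation only KDR had at least 10 reads, with 10 in each library, and the summed level of the 4 was 0.385 and 0.565 CPM. Of 5 leukocyte markers, 3 had at least 10 reads, of which 2 were higher and none was lower, with a summed level of 13.6 and 52.3 CPM. The 2 were CD68, a lysosomal protein of macrophages and other cells, with 400 and 1644 reads, and CD14 with 1 and 9. The pan-leukocyte marker PTPRC had 6 and 0 reads, and the T cell marker CD3E had 0 in both.

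TGFBI encodes a secreted fasciclin-domain protein, the paralog of periostin, that is induced by transforming growth factor beta and binds collagen and integrins. It had 6052 reads in the parental and 27323 in the CARM1 KO library, 4.41-fold higher (4.29 to 4.53). Its rank by reads was 940 and 99. Per kilobase of merged exons POSTN was 7.61 times as abundant as TGFBI in parental cells, whereas TGFBI was 2764 times as abundant as POSTN in CARM1 KO cells. With the length of the canonical transcript, an alternative chosen after seeing the data, the ratios were 4.43 and 4751. The leading fasciclin-family transcript was therefore POSTN in one library and TGFBI in the other. TGFBI lies on the plus strand at chr5:135364677-135399507, with 17 exons.

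THBS1 encodes thrombospondin 1, a trimeric protein that binds CD36 and CD47 and can activate latent transforming growth factor beta. It had 4510 reads in the parental and 35487 in the CARM1 KO library, 7.69-fold higher (7.45 to 7.93), and its rank by reads was 1392 and 67. THBS2, the paralog that lacks the activating sequence, had 2 and 28 reads, a ratio of 13.7 with an interval from 3.45 to 118. THBS1 was by far the main thrombospondin of the pair in both libraries, at 1772 times the level of THBS2 per kilobase of merged exons in parental and 996 times in CARM1 KO cells. THBS1 lies on the plus strand at chr15:39873280-39891667 and THBS2 on the minus strand at chr6:169615875-169654145, each with 22 exons. The few THBS2 reads are uncertain, because THBS2-AS1 on the opposite strand shares 2249 exonic bases with it and had 8 and 31 reads itself, and whether strand was used in the counting is not given in the sources used here. FSIP1 overlaps THBS1 in the same way over 448 bases but had 97 and 55 reads, few beside those of THBS1.

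TNC encodes tenascin C, a large hexameric protein of embryonic tissue, wounds and tumour matrix. It had 43 reads in the parental and 578 in the CARM1 KO library, 13.1-fold higher (9.62 to 18.3). Its fold was close to that of FN1, yet its level was of another order: 1.89 CPM per kilobase in CARM1 KO cells, where FN1 was at 391. TNC lies on the minus strand at chr9:117781854-117880486, with 28 exons. SPARC, a collagen-binding protein also called osteonectin, had 5639 and 10253 reads and was 1.78-fold higher (1.72 to 1.83), under the fold. It lies on the minus strand at chr5:151040657-151066536, with 10 exons.

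**Figure D2:**
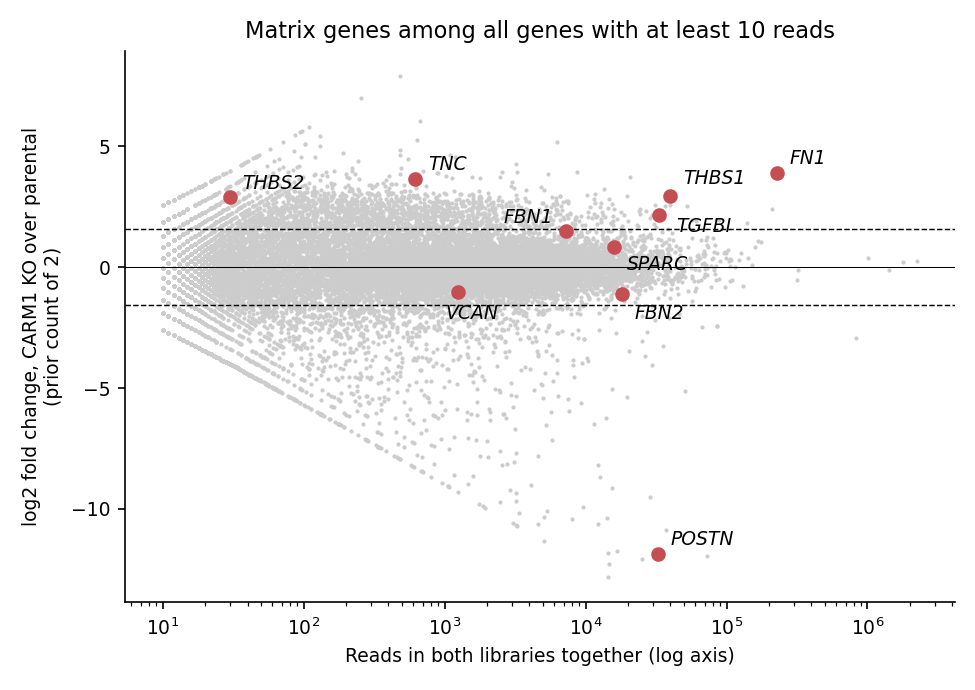
Log2 fold, CARM1 KO over parental (prior count of 2), against the reads of both libraries together (log scale) for every gene with at least 10 reads, with the 10 matrix genes named and lines at the fold of 3. FN1 and THBS1 combine many reads with a high fold, POSTN sits near the lower edge, and the folds of genes with few reads, as for THBS2, scatter widely.

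The fibrillins are long cysteine-rich proteins that form the microfibrils on which elastic fibres are laid and latent transforming growth factor beta is stored. FBN1, the main adult form and the gene mutated in Marfan syndrome, had 1880 reads in the parental and 5412 in the CARM1 KO library, 2.81-fold higher (2.67 to 2.96). FBN2, a form made mostly in development, had 12401 and 5865 reads and was 2.16-fold lower (2.10 to 2.23). Neither was past the fold of 3, but they went in opposite directions. FBN2 was 6.85 times as abundant as FBN1 per kilobase of merged exons in parental cells and 1.13 times as abundant in CARM1 KO cells, so FBN1 went from 12.7% to 47.0% of the pair. FBN1 lies at chr15:48700510-48937918 with 66 exons and FBN2 at chr5:127593601-127994878 with 65, both on the minus strand. SLC27A6 shares 56 exonic bases with FBN2 on the opposite strand and had 141 and 55 reads.

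VCAN encodes versican, a large chondroitin sulfate proteoglycan that binds hyaluronan. It had 833 reads in the parental and 422 in the CARM1 KO library and was 2.02-fold lower (1.80 to 2.28), under the fold. It lies on the plus strand at chr5:82767437-82878122, with 15 exons. The next gene with at least 50 reads, HAPLN1, lies 55.5 kb away and encodes a link protein that fastens versican and its relatives to hyaluronan. HAPLN1 had 3215 reads in the parental and 0 in the CARM1 KO library, at least 1097-fold lower when the empty library is set to 3 reads. The genes of the proteoglycan and its link protein thus went in the same direction, but only HAPLN1 was past the fold.

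The largest part of the group's reads was POSTN in parental cells and FN1 in CARM1 KO cells. The 10 genes together took 0.254% of all reads in parental cells (0.252 to 0.255) and 0.929% in CARM1 KO cells (0.926 to 0.933), a summed fold of 3.76. Without FN1 the shares were 0.208% and 0.264%, a summed fold of 1.30. In that sum the fall of POSTN (32601 and 7 reads) offsets rises such as those of THBS1 (4510 and 35487) and TGFBI (6052 and 27323). POSTN made up 41.8% of the reads of the group in parental cells and 0.00233% in CARM1 KO cells, and FN1 made up 18.0% and 71.6%. FBN2 went from 15.9% to 1.95% of the group and THBS1 from 5.78% to 11.8%. These are shares of reads, which favour long genes. Per kilobase of merged exons POSTN (192 CPM) and SPARC (39.0) stood above FN1 (26.1), TGFBI (25.2) and FBN2 (22.3) in parental cells. In CARM1 KO cells FN1 (391), THBS1 (122) and TGFBI (111) were the highest. The order below the first gene depends on the length used. With the length of the canonical transcript SPARC (52.5) stood below TGFBI (71.7) and FN1 (53.7) in parental cells. TGFBI (316) then stood above THBS1 (143) in CARM1 KO cells.

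**Figure D3:**
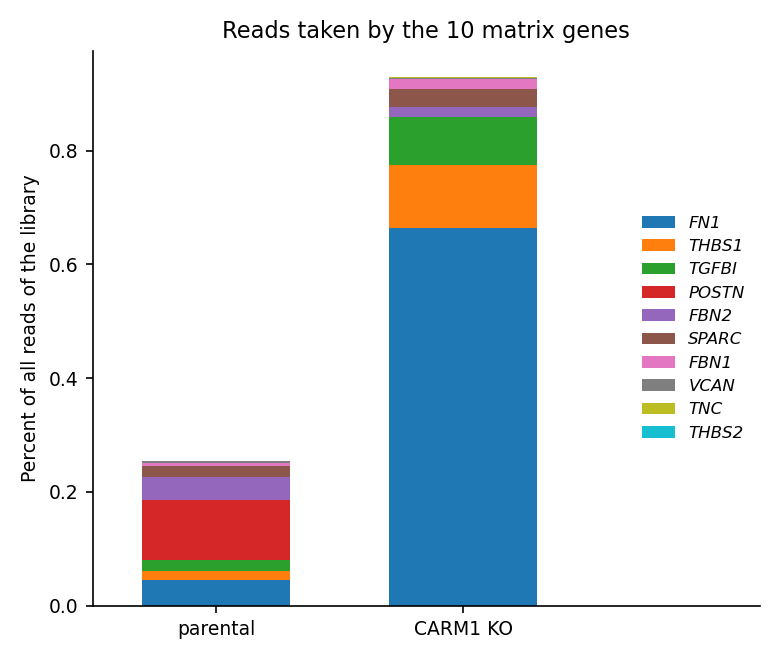
Percent of all reads of the library taken by each of the 10 matrix genes, stacked, in parental and CARM1 KO cells, 1 library each. The whole bar is 0.254% in parental and 0.929% in CARM1 KO cells; POSTN is the largest piece of the first and FN1 of the second.

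The sequences just before the transcription start were set side by side for the 4 genes with the clearest differences, to show what kinds of promoter they have. They are the 250 bases upstream of the RefSeq start, 5′ to 3′ on the gene's own strand, and each matched GRCh37 exactly at 1 place: FN1 at chr2:216300792-216301041 (minus strand), THBS1 at chr15:39873030-39873279 (plus), TNC at chr9:117880437-117880686 (minus) and POSTN at chr13:38172906-38173155 (minus). Capitals mark matches, on either strand, to 6 short motifs that are named after the sequences.
FN1: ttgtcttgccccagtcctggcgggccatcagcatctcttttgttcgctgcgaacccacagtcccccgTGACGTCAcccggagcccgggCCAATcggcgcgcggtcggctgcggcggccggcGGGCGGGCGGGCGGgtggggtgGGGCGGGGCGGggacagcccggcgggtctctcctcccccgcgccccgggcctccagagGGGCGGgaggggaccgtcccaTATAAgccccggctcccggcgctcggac
THBS1: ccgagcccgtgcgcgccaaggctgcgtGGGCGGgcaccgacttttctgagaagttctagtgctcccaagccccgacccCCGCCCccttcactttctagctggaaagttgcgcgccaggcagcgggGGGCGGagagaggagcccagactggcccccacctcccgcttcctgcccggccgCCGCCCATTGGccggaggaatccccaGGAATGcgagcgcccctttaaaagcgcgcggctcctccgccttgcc
TNC: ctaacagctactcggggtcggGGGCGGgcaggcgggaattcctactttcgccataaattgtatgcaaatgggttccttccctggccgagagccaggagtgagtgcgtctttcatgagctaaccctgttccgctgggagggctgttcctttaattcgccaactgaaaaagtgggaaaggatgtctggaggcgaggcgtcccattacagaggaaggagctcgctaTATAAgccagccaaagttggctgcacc
POSTN: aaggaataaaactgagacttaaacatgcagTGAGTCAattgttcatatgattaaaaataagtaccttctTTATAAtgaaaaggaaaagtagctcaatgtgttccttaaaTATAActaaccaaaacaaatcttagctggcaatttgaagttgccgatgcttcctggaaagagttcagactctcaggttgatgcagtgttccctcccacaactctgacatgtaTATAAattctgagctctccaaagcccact

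These promoters are of different kinds. FN1 had 76.4% G and C and 32 CpG dinucleotides in the 250 bases, THBS1 69.6% and 24, TNC 54.8% and 12, and POSTN 36.4% and 1, where the median over 35114 RefSeq promoters was 58.0% and 11. Of the 10 genes, POSTN had the fewest CpG and FN1 the most. The motif TATAA was found in 5 of the 10 promoters (FN1, POSTN, THBS2, TNC and VCAN), each with a match that starts 26 to 29 bases before the transcription start, while 18.9% of all promoters held it anywhere in the window. The GC box, spelled GGGCGG, was found in 6 of the 10 and in 42.6% of all, and FN1 alone held 6 matches, some of which overlap. The CCAAT box was found in 3 of the 10 and in 32% of all. The full cyclic AMP response element TGACGTCA was found only in FN1 among the 10, from 183 to 176 bases upstream, and in 1.65% of all promoters. The AP-1 site TGANTCA was found only in POSTN among the 10, from 220 to 214 bases upstream, and in 6.57% of all. The TEAD motif GGAATG was found in FBN1, SPARC, THBS1 and THBS2 and in 11.9% of all. A match describes letters and is not a bound site, and no factor binding was measured in these libraries.

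The nearest genes were read to see whether the differences extended along the chromosome. For the 10 genes, the 3 nearest protein-coding genes on each side with at least 50 reads made 60 neighbours, of which 2 were higher and 7 lower past the fold, with a median log2 fold of −0.34. Of the 12522 protein-coding genes with as many reads, 11.1% were higher and 7.45% lower, with a median of 0.03, so the 60 neighbours held few that were higher (3.33%) and a share of lower ones (11.7%) of the same order as elsewhere. The lower ones were not spread evenly: 2 lay around POSTN, 2 around VCAN and 1 each around FBN2, FN1 and TGFBI. Around POSTN, TRPC4, a cation channel gene 33.2 kb away, had 912 and 89 reads and was 10.5-fold lower (8.43 to 13.2), and FREM2, which encodes a basement membrane matrix protein 1088 kb away, had 14900 and 468 reads and was 32.6-fold lower (29.7 to 35.8). Around VCAN, besides HAPLN1, EDIL3, an integrin-binding matrix gene 358 kb away, had 569 and 41 reads and was 14.2-fold lower (10.3 to 20.0). MEGF10, 792 kb from FBN2, had 69 and 2 reads, a fold of 35.3 lower (9.42 to 297).

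The genes that were higher had mostly unlike neighbours. ATIC, the nearest to FN1 at 10.7 kb, had 756 and 646 reads. Of the 6 around FN1 only TMEM169 was past the fold, at 5.28-fold lower (2.89 to 10.4) with 67 and 13 reads. SPOCK1, itself a matricellular gene, lies among the neighbours of TGFBI, 911 kb away, and had 26 and 279 reads, 10.5-fold higher (7.0 to 16.3). KLHL3, another neighbour of TGFBI at 1554 kb, was 4.37-fold lower (2.83 to 6.98). RASGRP1, 1015.5 kb from THBS1, had 10 and 78 reads, 7.62-fold higher. None of the 6 neighbours each of TNC, SPARC, THBS2 and FBN1 was past the fold. Some neighbours lay far off, such as CDK5RAP2 at 5271 kb from TNC.

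**Figure D4:**
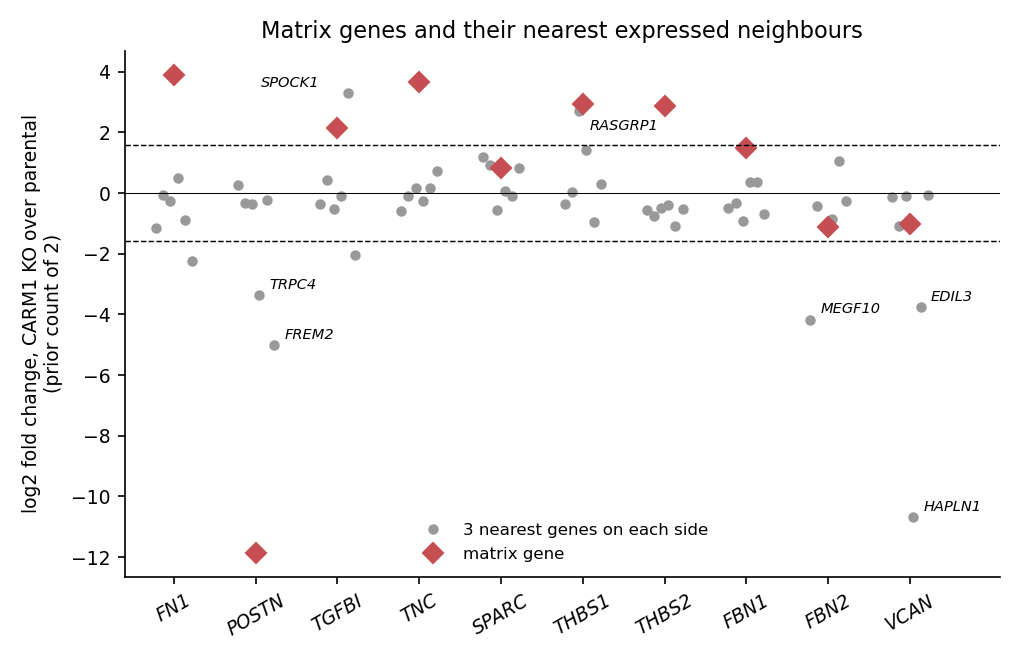
Log2 fold, CARM1 KO over parental (prior count of 2), of each of the 10 matrix genes (diamonds) and of the 3 nearest protein-coding genes on each side with at least 50 reads (points), with lines at the fold of 3. Most points lie between the lines, and the lowest ones stand beside POSTN, FBN2 and VCAN.

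The related genes of each list were counted in the same way, with the lists drawn up with earlier results of these counts known. Each count is to be read beside the 12.8% of all genes that were higher and the 11.7% that were lower, and each median beside −0.02. Of 21 other matricellular genes, 12 had at least 10 reads, of which 7 were higher, 1 was lower and 4 were under the fold, with a median log2 fold of 1.56. Besides SPOCK1, CCN1, which encodes an integrin-binding protein and is an immediate early gene, had 1960 and 8436 reads and was 4.20-fold higher. CCN3 had 79 and 284 reads, 3.51-fold higher (2.73 to 4.56). SPOCK2, a testican proteoglycan and relative of SPARC and SPOCK1, was the 1 that was lower, with 12210 reads in the parental and 6 in the CARM1 KO library, 2084-fold lower (957 to 5679). The split between POSTN and TGFBI thus had a counterpart in the testicans, where SPOCK2 and SPOCK1 went in opposite directions.

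Of 27 microfibril and elastic fibre genes, 23 had at least 10 reads, of which 7 were higher, 5 were lower and 11 were under the fold, with a median of 0.48. EFEMP1, a fibulin, had 150 and 2396 reads and was 15.6-fold higher (13.2 to 18.5). LOX, the lysyl oxidase that crosslinks collagen and elastin, had 52 and 829 reads, also 15.6-fold higher (11.8 to 21.0). FBLN2, a fibulin that binds fibronectin and fibrillin, was 6.52-fold higher with 117 and 781 reads. EMILIN1, an elastic fibre glycoprotein, had 115 and 13 reads and was 9.06-fold lower (5.09 to 17.5).

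Of 21 genes for hyaluronan and for versican and its relatives, 13 had at least 10 reads, of which 5 were higher, 3 were lower and 5 were under the fold, with a median of 0.82. HAS2, a hyaluronan synthase, had 94 and 2 reads and was 48.1-fold lower (13.0 to 403). Another hyaluronan synthase gene, HAS3, went the other way with 16 and 58 reads, 3.54-fold higher (2.01 to 6.60). HAS2 and HAS3 were named after their values were seen. CD44, the main hyaluronan receptor, had 2407 and 10946 reads and was 4.44-fold higher (4.25 to 4.64). ADAMTS5, a protease that cleaves versican and aggrecan, was 4.63-fold higher with 39 and 185 reads. ADAMTS1 was 3.04-fold higher (2.83 to 3.26) with 1049 and 3260 reads.

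Of 19 receptors of the 10 proteins, 16 had at least 10 reads, of which 3 were higher, 3 were lower and 10 were under the fold, with a median of 0.90. With 3 of 16 in each direction this list was near the shares of all genes. ITGAV, the integrin alpha chain that binds fibronectin, periostin and TGFBI, had 36023 and 9664 reads and was 3.82-fold lower (3.73 to 3.90). CD36, a receptor for thrombospondins, had 95 and 8 reads and was 12.2-fold lower (5.93 to 29.0), while its ligand gene THBS1 was higher. The other THBS1 receptor gene named above, CD47, had 2557 and 5854 reads. It was under the fold at 2.24-fold higher (2.13 to 2.34) and was looked up after its values were seen. SDC2, a heparan sulfate proteoglycan of the cell surface, was 3.83-fold higher with 1128 and 4424 reads. ITGA4, a chain of a fibronectin receptor, was 3.27-fold higher (2.83 to 3.79) with 239 and 800 reads. ITGA5 and ITGB1, which pair as the classical fibronectin receptor, were looked up after their values were seen: ITGA5 had 955 and 1115 reads and ITGB1 63012 and 43374, neither past the fold.

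**Figure D5:**
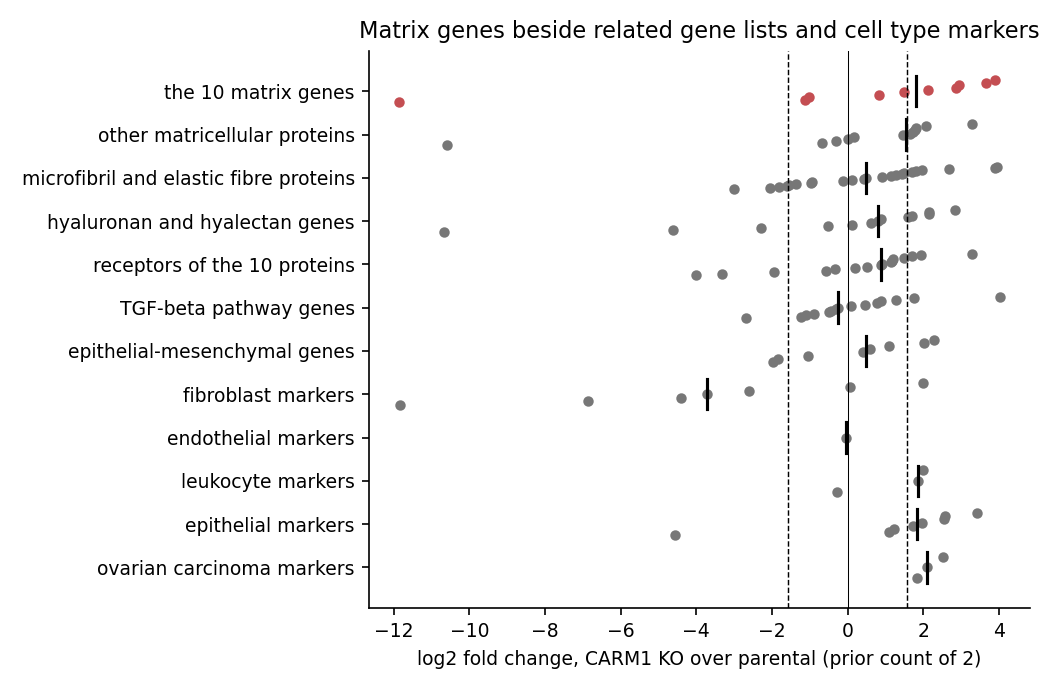
Log2 fold, CARM1 KO over parental (prior count of 2), of each gene with at least 10 reads over both libraries, by list, with a bar at each list's median and dashed lines at the fold of 3. The 10 matrix genes have their median at 1.82, and the fibroblast markers, with 5 lower and 1 higher, have theirs at −3.72, or −3.03 with counts below 3 reads set to 3.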

How the data were processed

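RNA-Seq libraries of parental and CARM1 KO A1847 cells were prepared with a ScriptSeq Gold kit and sequenced as paired ends on an Illumina NextSeq. The authors aligned the reads with bowtie2 to hg19 and estimated read counts per Ensembl gene with RSEM, and the counts were deposited unnormalized, as whole numbers. RSEM splits reads that fit several genes, so counts of overlapping genes or close copies are uncertain. The Ensembl release and the use of strand are not given in the sources used here. GENCODE gene models on GRCh37 gave a symbol to 55501 of 57736 identifiers.

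The 10 genes, the lists and the rules were chosen with earlier results of these data known. Counts were scaled by TMM in edgeR 4.0.16 (R 4.3.3) and no test was made, since with 1 library per condition a quasi-likelihood fit has no residual degrees of freedom. Folds are ratios of scaled counts with exact 95% binomial intervals (scipy 1.17.1), and fold medians use a prior count of 2. A count of 0 was set to 3 reads for bounds. Levels per length use merged exons of the annotation. The scaling and the calls past the fold were tested on simulated counts, which held no spread between libraries beyond counting error. All 10 genes were named, with CARM1, overlapping genes, neighbours with the highest or lowest fold, and up to 4 genes per list with the highest absolute log2 fold and at least 100 reads. Other genes, such as those that define a cell type, were named after their values were seen. Promoters came from RefSeq, in which all 10 genes matched. Alternatives were other scalings (DESeq2 1.42.0 among them), read minimums, folds, an edgeR exact test with assumed spreads, and other denominators. A gene of the transforming growth factor beta list is not reported here and was left out of its counts.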

Additional observations from a re-analysis of the deposited data

How the results depend on the processing

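With 1 library per condition no library could be left out. No paired analysis was possible because each condition has a single library. Under 4 other scalings the direction and the side of the fold of 3 did not change for any of the 10 genes. FN1 ranged from 14.5-fold to 15.3-fold higher, POSTN from 4657-fold to 4919-fold lower, and FBN1 stayed under the fold at 2.73 to 2.88. Over all genes these scalings gave 2310 to 2406 higher and 2088 to 2237 lower, beside 2372 and 2175, and moved the median log2 fold by at most 0.045. With a minimum of 1 read, 4915 genes were higher and 5724 lower. With a minimum of 50 reads 1219 were lower, and THBS2 was left out. With a fold of 2, 3631 were higher and 3537 lower. Then 6 matrix genes were higher, with FBN1 added, and 3 were lower (POSTN, FBN2 and VCAN). Counting only genes whose whole interval lay past the fold of 3, 1292 were higher and 1234 lower. With edgeR's exact test, a fold of 3 and an assumed coefficient of variation of 0.4, 388 were higher and 808 lower, and 3 matrix genes were higher (FN1, TNC and THBS1, without TGFBI and THBS2). The share of reads taken by the 10 genes was 0.298% in parental and 1.07% in CARM1 KO cells over protein-coding reads, and 0.208% and 0.264% without FN1. Depth limits THBS2 most, with 2 and 28 reads.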

Other observations

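Genes of transforming growth factor beta signalling, which induces FN1, TGFBI and POSTN in many cells, were counted in the same way. Of 15 such genes 2 were higher, 1 was lower and 12 were under the fold, with a median log2 fold of −0.24, beside 12.8% higher and 11.7% lower among all genes, so this list was near the shares of all genes. The receptor gene TGFBR2 had 294 reads in the parental and 1024 in the CARM1 KO library, 3.40-fold higher (2.99 to 3.89), and the ligand gene TGFB3 had 99 and 14 reads, 7.24-fold lower (4.12 to 13.7). BMP1, a protease that processes collagens and other matrix proteins, had 152 and 381 reads, under the fold at 2.45, and the receptor gene TGFBR1 had 5076 and 2230 reads, under the fold at 2.33 lower.

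Of 8 genes of the epithelial-mesenchymal transition 2 were higher, 2 were lower and 4 were under the fold. Among all genes 12.8% were higher and 11.7% lower, to be read beside each count of this paragraph. CDH2, or N-cadherin, had 1451 and 6087 reads and was 4.10-fold higher, and the repressor ZEB2 had 430 and 2172 reads and was 4.93-fold higher. VIM, or vimentin, had 20572 and 45245 reads, under the fold at 2.15-fold higher. The transcription factors TWIST1 (1363 and 357 reads) and SNAI2 (727 and 207) were 3.91-fold and 3.60-fold lower. Epithelial markers were higher in the same library as FN1. Of 9 listed, 8 had at least 10 reads, of which 5 were higher, 1 was lower and 2 were under the fold. KRT7 had 4417 and 26653 reads and EPCAM 249 and 848, while KRT19 had 45 and 0. CDH1, or E-cadherin, was also higher, like CDH2, with 3 and 53 reads, a fold of 17.3 (5.59 to 86.3). Of 5 ovarian carcinoma markers, 3 had at least 10 reads and these were higher: PAX8, MSLN (201 and 1188 reads) and FOLR1 (59 and 264). The part of these markers in the differences of the matrix genes was not tested.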
